A study of Mus musculus with 4 samples.

Results

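The RB pocket proteins, the E2F transcription factors and the E2F partner DP1 decide whether a cell leaves G1 and copies its DNA. The 10 genes described here are Rb1, Rbl1, Rbl2, E2f1, E2f2, E2f3, E2f4, E2f7, E2f8 and Tfdp1. They were taken by symbol from a table of 19354 genes, and each of the 10 symbols had a single row. RNA-Seq libraries came from hematopoietic stem cells (HSCs), sorted from bone marrow as lineage-negative, Sca-1+, c-Kit+ (LSK) cells that were FLT3-, CD48- and CD150+. Control cells were from Mx1-Cre; Id2+/+ mice and mutant cells from Mx1-Cre; Id2Fl/Fl mice, so all animals carried the Mx1-Cre transgene. All were given pIpC, a synthetic double-stranded RNA that turns on the interferon-responsive Mx1 promoter, and HSCs were taken 2 weeks later from mice 8 to 16 weeks old. Cre then removes the floxed Id2 gene, in HSCs as well as in other interferon-responsive cells of the animal, and the mutant cells are called Id2Δ/Δ. HSCs of 14 control and 15 floxed mice were pooled over 2 experiments, and each genotype gave 2 libraries, replicates 1 and 2. Nothing in the labels says which animals or experiment a library holds, so p-values below measure only the spread between these libraries, which may be technical.

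As background, RB (from Rb1), p107 (from Rbl1) and p130 (from Rbl2) bind E2F factors through their pocket domain and hold E2F target genes silent in resting cells. Cyclin-dependent kinases phosphorylate the pocket proteins, E2F is released, and genes for DNA synthesis are transcribed. E2F1, E2F2 and E2F3 are classed as activators, E2F4 and E2F5 as repressors that work with p107 and p130, E2F6 as a repressor that needs no pocket protein, and E2F7 and E2F8 as atypical repressors that bind DNA without a DP partner. DP1, from Tfdp1, is the usual dimer partner of the others. Several of these genes are themselves E2F targets. ID2, the protein lost here, is known to bind hypophosphorylated pocket proteins.

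Promoter sequences can show which members carry the letters of the E2F motif, but not which of them E2F controls. RefSeq windows on GRCm38.p6, each running from 250 bases before to 50 bases after a transcription start, were found for 8 of the 10 genes (11 windows in all). Rb1 and E2f4 had no entry. The windows were searched on both strands for the E2F motif in its 4 spellings, TTTCCCGC, TTTCGCGC, TTTGCCGC and TTTGGCGC, and 5 of the 8 genes held it. The motif was in 2.26% of all 32851 windows of the RefSeq table, and in a window of 4.67% of the 10265 tested genes that had one. Each match is printed with the stretch around it, read 5′ to 3′ on the gene's own strand with the motif in capitals, because these members carry the letters of the E2F motif in their own promoter window.
Rbl1, chr2:157204519-157204578, minus strand: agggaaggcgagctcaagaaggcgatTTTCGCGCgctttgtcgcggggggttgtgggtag
E2f2, chr4:136172287-136172323, plus strand: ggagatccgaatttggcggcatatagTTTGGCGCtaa
E2f3, chr13:29986041-29986100, minus strand: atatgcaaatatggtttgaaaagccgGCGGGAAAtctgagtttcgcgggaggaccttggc
E2f7, chr10:110745215-110745274, plus strand: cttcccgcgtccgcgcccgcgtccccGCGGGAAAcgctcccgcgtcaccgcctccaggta
Tfdp1, chr8:13338682-13338741, plus strand: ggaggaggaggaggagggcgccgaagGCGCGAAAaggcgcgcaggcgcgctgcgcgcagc

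In E2f3, E2f7 and Tfdp1 the motif was on the other strand, so it appears above as its reverse complement. Counted from the transcription start, the motif was at position -18 in Rbl1, -11 in E2f3, -198 in E2f7 and 40 in E2f2. In Tfdp1, which has a pair of starts, it was at -43 from the first and -96 from the other. E2f1, E2f8 and Rbl2 had a window and no match. The window of E2f1, from 154569377 to 154569676, lay inside the gene, whose 5′ end on the minus strand is at 154569892. Sequence before that end was not searched. The E2f2 window with the match, from 136172024 to 136172323, ended before the gene start given below, 136172394. Its position of 40 is counted from the RefSeq start of that window only. Without the first T of the motif, a looser search chosen after the windows were seen, 6 of the 8 genes matched, E2f8 among them, beside 19.1% of tested genes. A match is a run of letters and not a measured binding site.

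**Figure D1:**
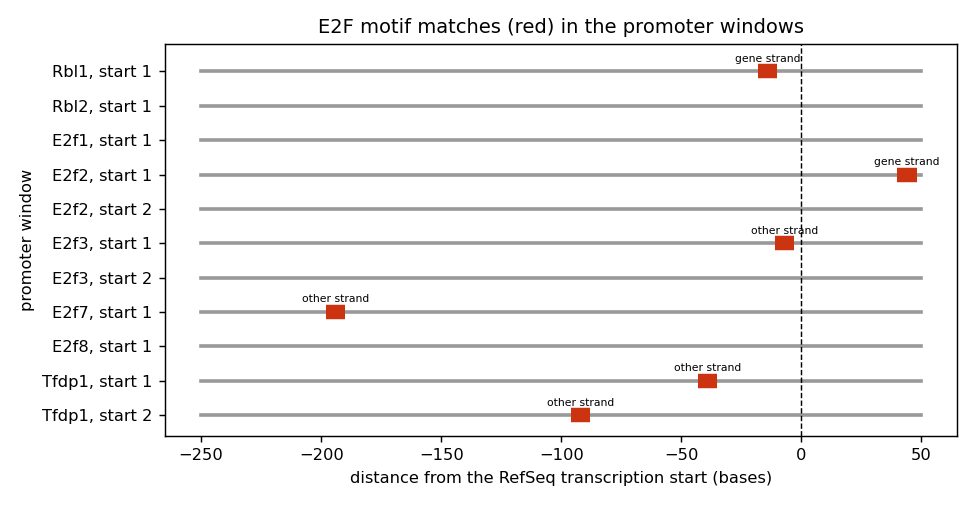
Position of E2F motif matches (red) in the 11 RefSeq promoter windows of 8 genes, plotted in bases from the transcription start, with the strand of each match written above it. The match lies within 50 bases of a RefSeq start in Rbl1, E2f2, E2f3 and Tfdp1 and at -198 in E2f7. In E2f2 it lies before the gene start given in the text.

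Depth, estimated from the steps between low values, was 14200000 and 15700000 reads for Id2+/+ and 17800000 and 18800000 reads for Id2Δ/Δ libraries. The targeted gene matched its labels, with 93 and 98 Id2 reads in the Id2+/+ libraries and 0 in both Id2Δ/Δ libraries. Taking 3 reads in each mutant library as an assumed upper limit for a count of 0, Id2 was at least 38.4-fold lower. This limit covers counting error only. All 10 HSC marker genes had rows, and their summed level was 4840 to 4920 CPM (read counts scaled to a common library total) in Id2+/+ and 3480 to 4110 CPM in Id2Δ/Δ libraries. Summed neutrophil markers reached 171 to 282 CPM in Id2+/+ and 142 to 262 CPM in Id2Δ/Δ, summed erythroid markers 47.8 to 65.1 and 53.2 to 71.9 CPM, and summed megakaryocyte markers 454 to 510 and 513 to 598 CPM. The genes gated against in the sort, Flt3 and Cd48, summed to 53.0 to 57.7 and 48.3 to 52.3 CPM. Monocyte and macrophage markers summed to 194 to 206 and 186 to 250 CPM. Of the B-cell list 3 of 7 genes and of the T-cell list 2 of 6 had a row. Those B-cell genes summed to 36.8 to 40.8 CPM in Id2+/+ and 37.7 to 54.0 CPM in Id2Δ/Δ. The T-cell genes summed to 44.1 to 55.2 and 43.1 to 58.9 CPM. They were Nkg7, at 5.34 to 5.82 log2 CPM over the libraries, and Cd4, at 0.46 to 1.76. Most of the T-cell sum was thus Nkg7. Most of the B-cell sum was Cd79b (5.06 to 5.67 log2 CPM), and most of the monocyte and macrophage sum was Lyz2 (7.34 to 7.79). No listed marker with a row was at 0 reads in all 4 libraries. In such bulk libraries fewer cells of a type and less RNA per cell cannot be told apart.

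Levels below are log2 CPM as the authors deposited them. Genotypes were compared with limma over 15895 genes that averaged 1 CPM or more, 2 libraries against 2, two-sided, with Benjamini-Hochberg adjustment over all those genes. All 10 members passed the filter. With so few libraries, the smallest two-sided p that an exact permutation test can give is 0.33. Of the 10 genes, 0 had an adjusted p under 0.05, as did 0% of all genes tested. The deleted gene Id2 itself, with a log2 fold change of -7.31, had an adjusted p of 0.910 (limma, unadjusted p = 0.000181). A cutoff that misses the deleted gene says little about whether the members differ. At an unadjusted p under 0.05 there was 1 member, E2f2, beside 4.67% of all genes. For 2 members, E2f2 and E2f8, the mutant libraries were both higher than either control, where 19.0% of all genes did so, and for 2 others, E2f3 and Rbl2, they were both lower, where 15.8% did. These shares are close to those of the whole table.

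**Figure D2:**
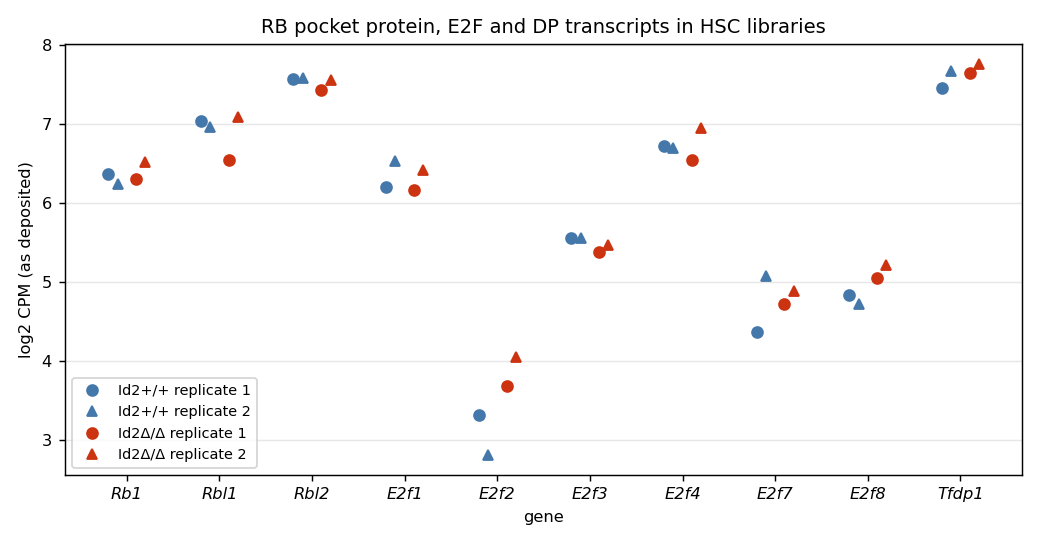
Level of each of the 10 genes in the 4 libraries, in log2 CPM as deposited (circles replicate 1, triangles replicate 2). Both Id2Δ/Δ libraries (red) sit above both Id2+/+ libraries (blue) for E2f2 and E2f8 and below them for E2f3 and, by 0.00212, for Rbl2.

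None of the 3 pocket protein genes differed between genotypes beyond the spread of its libraries. Rb1, the retinoblastoma gene (ENSMUSG00000022105.6, chromosome 14 of GRCm38 from 73183673 to 73325822, minus strand), was at 6.37 and 6.24 log2 CPM in Id2+/+ and at 6.30 and 6.52 in Id2Δ/Δ HSCs. The highest and the lowest of its 4 values were 0.28 apart, and the genotypes overlapped. The log2 fold change, Id2Δ/Δ minus Id2+/+, was 0.11 with a 95% interval of -0.23 to 0.45. That interval leaves room for a level between 0.850 and 1.36 times that of the controls. Rbl1 (ENSMUSG00000027641.13, chromosome 2 from 157145893 to 157204534, minus strand) encodes p107, which rises in cycling cells. It was at 7.03 and 6.96 in Id2+/+ and at 6.54 and 7.09 in Id2Δ/Δ. The single low value was that of Id2Δ/Δ replicate 1, and the other Id2Δ/Δ library was the highest of the 4. The log2 fold change of -0.18 (95% interval -0.62 to 0.26) became 0.10 without Id2Δ/Δ replicate 1 and -0.46 without Id2Δ/Δ replicate 2. Rbl2 (ENSMUSG00000031666.15, chromosome 8 from 91070057 to 91123844, plus strand) encodes p130, the pocket protein of resting cells. Its values were 7.56 and 7.58 in Id2+/+ and 7.42 and 7.55 in Id2Δ/Δ. Both mutant values were lower, one of them by only 0.00212 than the nearer control, which is less than its counting error of 0.024 to 0.028 at about 2670 to 3530 reads. Its log2 fold change was -0.08 (95% interval -0.35 to 0.19), the narrowest interval among the 10 genes.

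Per kilobase of the longest transcript, which allows genes to be set side by side, p130 transcripts had the largest share of the pocket protein RNA. Rbl2 took 46.1% and 48.1% of the summed CPM per kb of the 3 pocket genes in Id2+/+ and 49.1% and 44.4% in Id2Δ/Δ libraries. The share of Rbl1 was 32.4% and 31.8% against 27.0% and 32.7%. The share of Rb1 was 21.5% and 20.1% against 23.9% and 22.9%. Rb1 was thus the only one of the 3 whose shares did not overlap between genotypes, and its share was higher in Id2Δ/Δ. The level of Rb1 did overlap, and 34.8% of all genes tested had levels without overlap. A share also depends on the other genes of the sum, and Rbl1 was lowest in Id2Δ/Δ replicate 1. The summed pocket level was 82.9 and 80.6 CPM per kb in Id2+/+ and 70.9 and 86.0 in Id2Δ/Δ, with the highest and the lowest value both in the mutant.

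Among the activator E2Fs the mutant libraries were higher for E2f2, lower for E2f3 and overlapping with the controls for E2f1. E2f2 (ENSMUSG00000018983.9, chromosome 4 from 136172394 to 136196057, plus strand), an activator with a known part in the proliferation of blood cells, had 145 and 111 reads in Id2+/+ and 231 and 312 reads in Id2Δ/Δ libraries. On the log2 CPM scale these were 3.32 and 2.81 against 3.69 and 4.05. Both mutant libraries were above both controls, with a gap of 0.37 between the nearest values. The counting error of single libraries at these reads was 0.082 to 0.14 and does not include the variation between libraries, and the control libraries had an SD of 0.37. The log2 fold change was 0.81 (standard error 0.30, 95% interval 0.11 to 1.5, unadjusted p = 0.0289, adjusted p = 0.910, limma), which is 1.75-fold. It was 0.55 without Id2+/+ replicate 2, the lowest library, and 1.07 without Id2+/+ replicate 1. In the libraries of letter A (replicates 1) alone the difference was 0.37 and in those of letter B (replicates 2) 1.25. Its size thus varied with the libraries compared. Its sign could not change, since both mutant libraries were above both controls.

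E2f1 (ENSMUSG00000027490.17, chromosome 2 from 154559407 to 154569892, minus strand), the activator that also drives apoptosis genes, was at 6.20 and 6.53 in Id2+/+ and at 6.16 and 6.42 in Id2Δ/Δ. Replicates 2 were higher than replicates 1 in both genotypes. Its log2 fold change was -0.07 (95% interval -0.47 to 0.33), and leaving out single libraries moved it between -0.24 and 0.10. E2f3 (ENSMUSG00000016477.17, chromosome 13 from 29906575 to 29986063, minus strand), the activator most tied to normal G1/S entry, was at 5.55 in both Id2+/+ libraries and at 5.38 and 5.47 in Id2Δ/Δ. Both mutant values were lower and the gap to the controls was 0.0807. The log2 fold change was -0.13 (standard error 0.15, 95% interval -0.49 to 0.23, adjusted p = 0.928, limma), and it was between -0.17 and -0.08 with any library left out. Within each library, E2f2 minus E2f3 on the log2 CPM scale was -2.22 and -2.75 in Id2+/+ and -1.69 and -1.41 in Id2Δ/Δ. The distance between these activators was smaller in both mutant libraries. That follows from the differences of the single genes given above and is not a separate result.

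E2f4 (ENSMUSG00000014859.9, chromosome 8 from 105297663 to 105305370, plus strand), the main E2F bound to p130 in resting cells, was at 6.72 and 6.69 in Id2+/+ and at 6.54 and 6.95 in Id2Δ/Δ. The mutant libraries lay on either side of the controls, and the log2 fold change was 0.04 (95% interval -0.34 to 0.42). Without Id2Δ/Δ replicate 2 it was -0.17 and without Id2Δ/Δ replicate 1 it was 0.24. Tfdp1 (ENSMUSG00000038482.11, chromosome 8 from 13338751 to 13378448, plus strand), the DNA-binding partner of the E2Fs, was at 7.45 and 7.67 in Id2+/+ and at 7.64 and 7.76 in Id2Δ/Δ. Within each replicate number the mutant was higher, by 0.19 and 0.10, but the groups overlapped and the log2 fold change was 0.14 (95% interval -0.15 to 0.44).

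The atypical repressors differed from each other. E2f8 (ENSMUSG00000046179.17, chromosome 7 from 48866429 to 48881596, minus strand) was at 4.83 and 4.72 in Id2+/+ and at 5.05 and 5.21 in Id2Δ/Δ. Both mutant libraries were above both controls by at least 0.22, and the SD between libraries was 0.08 in Id2+/+ and 0.11 in Id2Δ/Δ. The log2 fold change was 0.35 (standard error 0.18, 95% interval -0.06 to 0.77, unadjusted p = 0.0846, adjusted p = 0.910, limma) and stayed between 0.28 and 0.43 with any library left out. E2f7 (ENSMUSG00000020185.16, chromosome 10 from 110745439 to 110787384, plus strand), which forms dimers with E2F8, was at 4.37 and 5.08 in Id2+/+ and at 4.72 and 4.88 in Id2Δ/Δ. Here the controls held both the lowest and the highest value, and the log2 fold change of 0.08 had a 95% interval of -0.53 to 0.68. E2f8 minus E2f7 was 0.46 in Id2+/+ replicate 1, -0.35 in Id2+/+ replicate 2 and 0.33 in both Id2Δ/Δ libraries. These differences are between log2 CPM values that are not scaled by length.

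**Figure D3:**
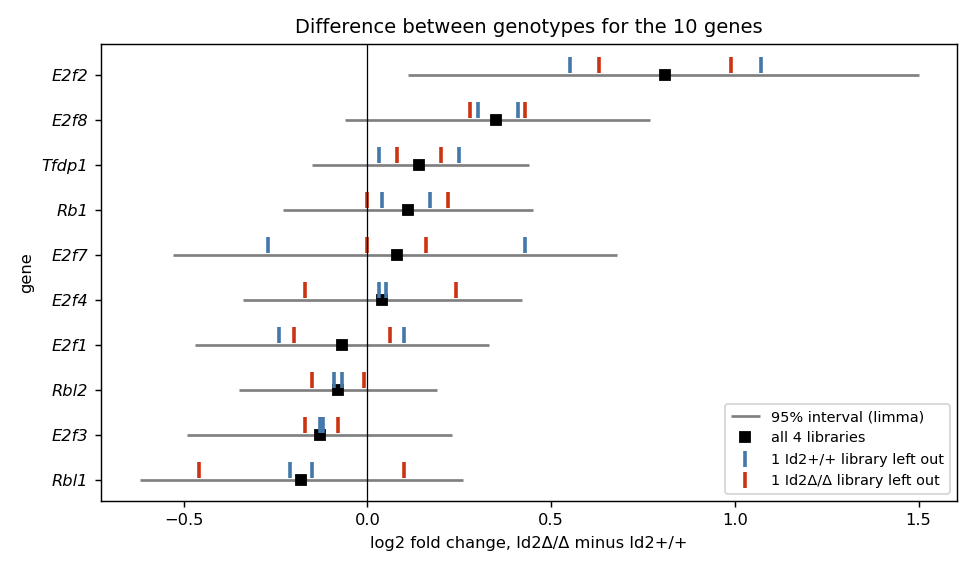
Log2 fold change (Id2Δ/Δ minus Id2+/+) of each gene with its 95% interval from limma (grey), and the values with 1 library left out (ticks above each line). The interval of E2f2 alone, from 0.11 to 1.5, lies on one side of 0, and 5 of the 10 genes keep their sign in every setting. For E2f2, E2f3, E2f8 and Rbl2, whose genotypes do not overlap, leaving out a library cannot change the sign.

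Scaled by length, the order of the 10 genes by mean level over the 4 libraries ran from Tfdp1, at 6.15 log2 CPM per kb, through E2f4 (5.73), Rbl2 (5.23), E2f1 (4.87), Rbl1 (4.62), Rb1 (4.14), E2f3 (3.14), E2f8 (3.07) and E2f7 (2.31) to E2f2 (1.22). Ranges over the libraries overlapped for 3 pairs of neighbours, namely E2f1 with Rbl1, Rbl1 with Rb1, and E2f3 with E2f8. All other neighbours were separate. Among all genes tested with a known length, Tfdp1 stood at the 94.5th percentile and E2f4 at the 91.5th, while E2f3 was at the 48.8th and E2f2 at the 22.2nd. The most abundant members are therefore the shared DNA-binding partner and the E2F of resting cells, and E2f2, the member with the largest difference, is the least abundant.

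Together with E2f5 and E2f6, the E2F genes that complete the family, the E2F transcripts kept a similar make-up. The activators E2f1 to E2f3 took 25.1% and 26.5% of the summed E2F CPM per kb in Id2+/+ and 23.8% and 25.3% in Id2Δ/Δ. E2f4 to E2f6 took 67.3% and 65.6% against 67.3% and 65.8%. The atypical pair took 7.61% and 7.95% in Id2+/+ and 8.89% and 8.98% in Id2Δ/Δ, which was higher in both mutant libraries. Within the pair, E2f8 took 5.1% and 4.27% against 5.78% and 5.84%, and the shares of E2f7 overlapped. The higher share of the pair thus largely follows from the level of E2f8 given above and is not a separate result. As levels, 19.0% of all genes were higher without overlap. E2f2 made up 1.40% and 0.883% in Id2+/+ and 1.76% and 2.05% in Id2Δ/Δ. E2f5 was at 4.33 and 4.75 log2 CPM in Id2+/+ and at 5.21 and 4.57 in Id2Δ/Δ, and its highest value was that of Id2Δ/Δ replicate 1. The log2 fold changes of E2f5, E2f6 and Tfdp2, which encodes the other DP partner, were 0.35, -0.10 and -0.18. Their standard errors were 0.27, 0.13 and 0.22, and genotypes overlapped for each.

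**Figure D4:**
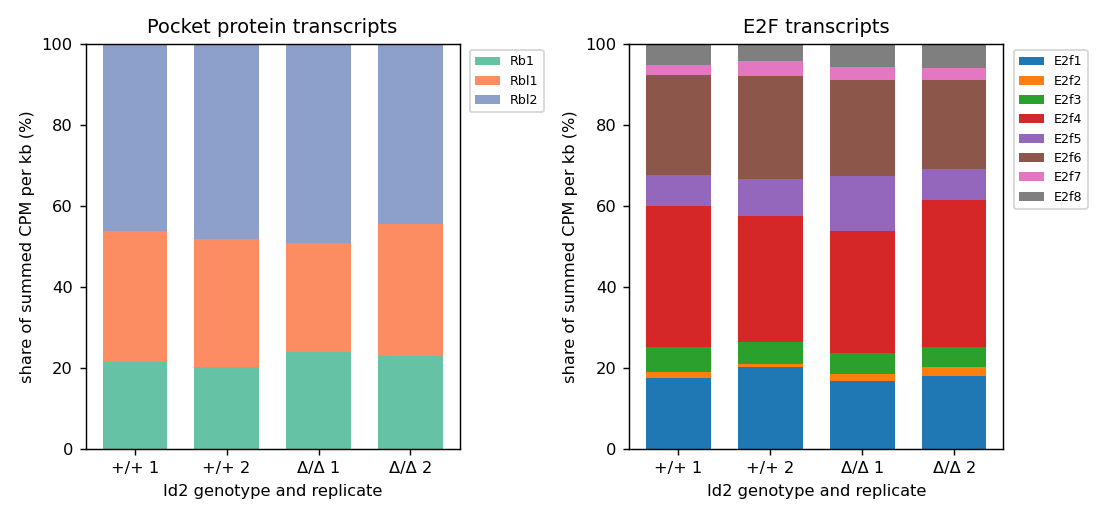
Share of each gene in the summed CPM per kb of the 3 pocket protein genes (left) and the 8 E2F genes (right) in each library, in percent. Rbl2 is the largest pocket share at 44.4% to 49.1% and E2f4 the largest E2F share at 30.1% to 36.2%, and E2f2 is a thin band of at most 2.05%.

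Likeness among members was measured as the root mean square difference between profiles over the 4 libraries, each centred on its own mean. The nearest pair was E2f3 and Rbl2, 0.0296 log2 units apart, both slightly lower in the mutant. Rb1 and E2f4 were nearest to each other at 0.0855. The nearest member to E2f2 was E2f8 at 0.278, the widest such distance in the family. Among all tested genes the closest to Rb1 were Ech1, Pgghg and Mppe1, at 0.00684, 0.0132 and 0.0137, and the closest to E2f1 were Trim47, Zbtb2 and Kif18a, at 0.0103, 0.0183 and 0.0221. With 4 libraries such distances are a description only.

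Around the members, no pathway gene named here passed an adjusted p of 0.05 in limma. MuvB is the core that joins p130 and E2F4 in the DREAM repressor of resting cells and B-MYB and FOXM1 in cycling cells. Of 8 genes for MuvB subunits and partners 6 were higher in Id2Δ/Δ, with a median log2 fold change of 0.16, beside 51.7% higher and a median of 0.01 over all genes tested. Libraries did not overlap for Dyrk1a, the kinase that starts DREAM assembly (0.28), and the MuvB subunit Lin54 (0.24), both higher, and for the subunit Lin37 (-0.18), lower. These 3 are 37.5% of the list, beside 34.8% of all genes tested. The gap of Dyrk1a was 0.0148, less than its counting error of 0.033 to 0.042. Of the 8 cyclins and kinases that phosphorylate RB 7 were higher, with a median of 0.10. Cdk2, the partner of cyclin E, was at 6.25 and 6.51 in Id2+/+ and 6.63 and 6.65 in Id2Δ/Δ, and Ccne2, which encodes cyclin E2, at 5.20 and 5.15 against 5.44 in both. Their log2 fold changes were 0.26 each, with standard errors of 0.14 and 0.16 (unadjusted p = 0.116 and 0.137, limma). In letter B libraries alone only 2 of the 8 were higher. Of 7 CDK inhibitors 5 were tested, 2 were higher, and the median was -0.08, or 0.04 without Id2Δ/Δ replicate 1.

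Of 12 corepressors and chromatin factors that work with RB, 5 were higher, and the median was -0.03, or 0.02 without Id2+/+ replicate 1. Smarca2, which encodes the SWI/SNF ATPase BRM, was at 8.70 and 8.58 in Id2+/+ and at 8.25 and 8.43 in Id2Δ/Δ. The difference was -0.30 log2 units with a standard error of 0.11 (limma, unadjusted p = 0.0329, adjusted p = 0.910). Kdm5a, a histone demethylase first found as an RB-binding protein, had -0.25, and Hdac1 had 0.09. After correction for transcript length the value of Kdm5a was -0.08. Of 6 genes for turnover of RB or E2F 5 were higher, with a median of 0.18. Without Id2Δ/Δ replicate 2 that median was -0.04, and without Id2Δ/Δ replicate 1 it was 0.35. Psmd10, which encodes gankyrin, an RB-binding protein that promotes RB degradation, was at 5.11 and 5.15 in Id2+/+ and at 5.73 and 5.47 in Id2Δ/Δ. The difference was 0.47 log2 units with a standard error of 0.17 (limma, unadjusted p = 0.0266, adjusted p = 0.910). Fzr1, an activator of the anaphase-promoting complex that degrades several E2Fs, had 0.22 with no overlap. Of 8 apoptosis genes named as E2F1 targets 6 were tested and all 6 were higher on average, with a median of 0.14. Pmaip1 among them was at -2.18 and -1.05 in Id2+/+ and at -4.25 and 2.11 in Id2Δ/Δ. It passed the filter and counted as higher only through Id2Δ/Δ replicate 2. With a filter of at least 10 CPM the median of the list was 0.06. With 1 library left out 3 to 5 of the 6 were higher and the median was as low as 0.02 (without Id2+/+ replicate 2), and in letter A libraries alone 3 were higher with a median of -0.03. Bcl2l11, which encodes the BH3-only protein BIM, had 0.43 with no overlap between genotypes. Of these 6 genes 2 (33.3%) were higher without overlap, beside 19.0% of all genes.

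The E2F targets of G1/S, genes for DNA replication and nucleotide synthesis, had a small and uneven difference. Of 42 tested, 33 were higher in Id2Δ/Δ, and the median log2 fold change was 0.10. Both mutant libraries lay above both controls for 11 (26.2%, beside 19.0% of all genes) and below for 2 (4.76%, beside 15.8%). Mcm10, which helps bring DNA polymerase to origins, was at 4.80 and 5.01 in Id2+/+ and at 5.52 and 5.57 in Id2Δ/Δ, and Tk1, thymidine kinase of S phase, at 5.57 and 5.64 against 6.12 and 6.0. Their log2 fold changes were 0.64 and 0.45 (standard errors 0.17 and 0.15, unadjusted p = 0.00655 and 0.0169, adjusted p = 0.910 for each, limma). Orc1, the origin recognition subunit, and Brca1, a DNA repair gene, were the 2 with both mutant libraries lower, with -0.24 and -0.12. The list's median was 0.20 in letter A and 0.02 in letter B libraries and 0.02 to 0.17 with 1 library left out, the lowest without Id2+/+ replicate 1.

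The E2F motif was found in 16 of the 33 G1/S genes with a promoter window (48.5%). Those 16 had a median of 0.10, with 10 higher, and the 17 without a match had 0.14, with 14 higher. Across the 474 tested genes that carried the motif and are not members, 286 (60.3%) were higher and the median was 0.05, beside 51.3% and 0.01 over 9787 genes with a window and no match. Libraries did not overlap on the higher side for 25.5% of the carriers and 18.5% of the rest. This comparison was chosen after the promoters had been searched and was not tested.

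Targets of DREAM that act in G2 and mitosis differed more. All 28 were higher on average in Id2Δ/Δ, with a median of 0.39 and values from 0.01 (Cenpa) to 0.80 (Ube2c). The list was chosen with earlier results of these data known. It holds Ccnb1, Ccnb2 and Cdk1, which the paper of this study names as increased in RNA-Seq of Id2Δ/Δ HSCs. Mcm10 of the G1/S list is named there too. Counts for the list are therefore a description and not independent support. In 20 of them (71.4%) both mutant libraries lay above both controls, beside 19.0% of all genes, and in 0 both lay below. At an unadjusted p under 0.05 there were 12 (42.9%, beside 4.67% of all genes), and at an adjusted p under 0.05 there were 0 (limma). Nusap1, a spindle protein, was at 5.75 and 5.54 in Id2+/+ and at 6.43 and 6.13 in Id2Δ/Δ, and Ccnb1, cyclin B1 of mitotic entry, at 5.83 and 5.70 against 6.30 and 6.23. Their log2 fold changes were 0.64 and 0.50, with standard errors of 0.17 and 0.14. The list's median was 0.45 in letter A and 0.33 in letter B libraries, where 26 and 24 of the 28 were higher. The E2F motif was in the window of 1 of the 24 such genes with one (4.17%). The median G2/M difference of 0.39 stood beside a member median of 0.06, while the summed HSC markers were lower and the summed megakaryocyte markers higher in both Id2Δ/Δ libraries. Neither marker list was uniform. Of the 10 HSC markers 5 were lower without overlap, Kit (-0.63) among them, and 2 were higher without overlap, Slamf1 (0.26) and Tal1 (0.31). Of the 6 megakaryocyte markers 3 were higher without overlap, and Ppbp (-0.39) was lower without overlap. Over all genes tested, 19.0% were higher and 15.8% lower without overlap. The nearest summed megakaryocyte levels were 510 and 513 CPM. The part of those marker levels in the G2/M values was not tested.

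**Figure D5:**
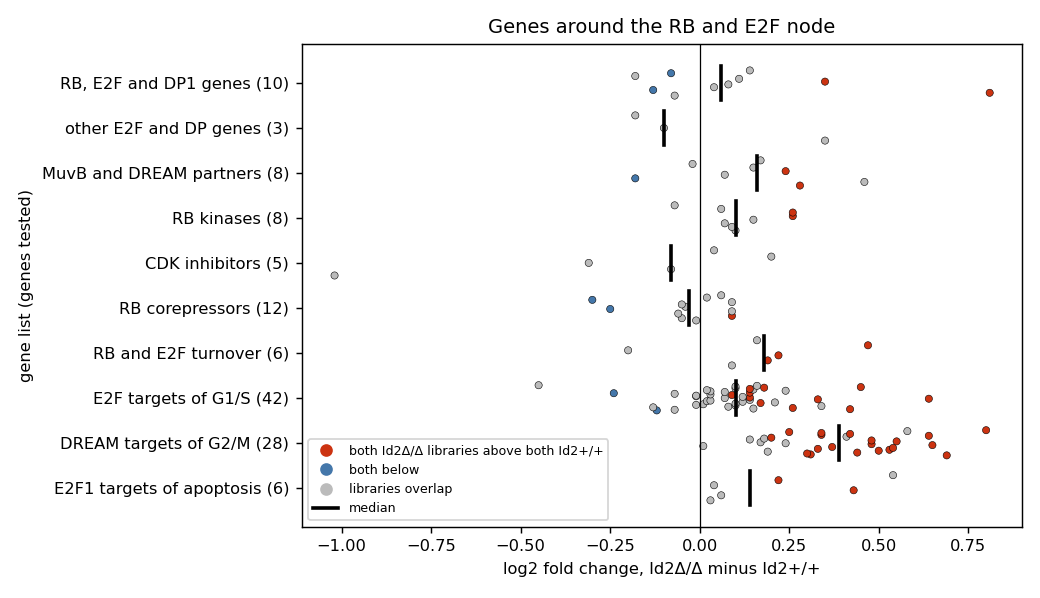
Log2 fold change (Id2Δ/Δ minus Id2+/+) of each tested gene in the lists around RB and E2F, 1 point a gene, with the median of each list as a black bar and points coloured by whether the libraries of the genotypes overlap. The G2/M targets lie to the right of 0 with a median of 0.39, and the other medians lie between -0.10 and 0.18.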

How the data were processed

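Values were log2 CPM, read counts scaled to a common library total, for all 4 libraries, as deposited by the authors. Their unit was read from the values, since each column taken back from log2 sums as CPM does. Columns share their quantiles, as quantile normalization gives, which hides any change in total RNA. The normalization tool is not given in the sources used here. The submitters' processing notes list CASAVA 1.8.4, Trimmomatic 0.30, TopHat2 2.0.8, RSEM and STAR and the builds mm9 and NCBIM37, with no order. Strand use and the gene filter are likewise not given in the sources used here. Gene coordinates and longest transcripts are from GENCODE M21 on GRCm38, matched by Ensembl ID (99.7% of IDs, 82.0% with the same version). Below 32 CPM reads were recovered from the order of distinct values. Limma 3.58.1 in R 4.3.3 (lmFit, eBayes with intensity trend, genotype only) was fitted to 15895 genes and checked on simulated data. No count test was run, since reads above 32 CPM were not recovered. Counting error is the Poisson error of reads on the log2 scale.

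The members and lists were chosen with earlier results of these data known. Besides the members, the rule named Id2, E2f5, E2f6 and Tfdp2, and in each other list up to 2 genes in each direction whose libraries do not overlap, by smallest unadjusted p. Some genes are not reported here. Cenpa, Ube2c, Pmaip1 and the named marker genes were named after their values were seen. Alternatives varied the pseudocount, filter, scaling, trend, replicate block, transcript length correction and libraries.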

Additional observations from a re-analysis of the deposited data

How the results depend on the processing

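Across 150 recomputed member values 0 passed an adjusted p of 0.05 and 11 changed sign, all with libraries left out. Rbl2, E2f2, E2f3, E2f8 and Tfdp1 kept their sign throughout. Except for Tfdp1, their genotypes do not overlap, so leaving out libraries could not change the sign. With 1 library left out, the lone library of its genotype was assumed to vary like the other genotype, and Rb1 ranged from -0.002 to 0.22, Rbl1 from -0.46 to 0.098, E2f1 from -0.24 to 0.095, E2f4 from -0.167 to 0.24, E2f7 from -0.273 to 0.43 and Tfdp2 from -0.51 to 0.15. In letter A libraries alone Rb1 was -0.07 and E2f4 -0.179, and in letter B libraries Rbl1 was 0.131, E2f7 -0.193 and E2f5 -0.184. The cause was not tested. Leaving out a library gave 196 to 2516 genes at an unadjusted p under 0.05 (742 with all), the fewest without Id2+/+ replicate 1 and the most without Id2Δ/Δ replicate 2, 246 without Id2+/+ replicate 2 and 1242 without Id2Δ/Δ replicate 1. It gave 0 to 1 members there (0 without Id2+/+ replicate 2), and medians of -0.075 to 0.181 for the members, 0.015 to 0.165 for G1/S and 0.336 to 0.438 for G2/M targets. In letter A libraries the G1/S and G2/M medians were 0.202 and 0.451, and in letter B the G2/M median was 0.332. Deviations of same-numbered libraries from their group means correlated at 0.0592 over all genes tested and 0.144 over the 7377 with at least 32 CPM. The labels do not say what a shared number or letter marks, so no pairing was assumed. The replicate block called 1 gene, as did the replicate block with length correction, against 0 without it, and no member. Other alternatives left the counts within 1.5 times. E2f2 and E2f8 rest on 111 to 695 reads per library, which limits how finely their differences are known.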
